A study of Mus musculus with 6 samples.

Results

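The MHC class I presentation machinery was followed through 10 listed genes in sorted tumor cells from 6 mammary tumors. The genes were the heavy chains H2-K1 and H2-D1, the light chain B2m, the peptide transporter subunits Tap1 and Tap2, the loading chaperone tapasin (Tapbp), the transactivator Nlrc5, the immunoproteasome subunits Psmb8 and Psmb9, and the trimming peptidase Erap1. They were listed by name, with earlier results of these data known, and all 10 were found among the 47643 gene identifiers of the count files, of which 21717 had a count in any tumor. Of the 10, 9 had a count in every tumor, and Tap2 had none in tumor 1. The 6 tumors arose in female mice of the MMTV-PyMT model, in which a mammary tumor virus promoter drives the polyoma middle T antigen, from the strain FVB/N-Tg (MMTV-PyVT)634Mul/J. All had been treated with B20-4.1.1, which blocks mouse VEGF-A, by intraperitoneal injection of 5 mg/kg, 2 times per week for 6 weeks from 7 weeks of age. The cells were sorted as CD45-EPCAM+, and the sort also left out CD31+ and PDGFRα+ cells. The study asked how hypoxia induced by antiangiogenic treatment alters the tumor cell compartment, but the labels give neither a hypoxia class nor an untreated group for these 6 libraries, so values are described for each tumor and no groups were compared.

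MHC class I molecules display short peptides from the cell's own proteins to CD8+ T cells. Proteasomes cut the peptides, the TAP transporter, a dimer of Tap1 and Tap2, carries them into the endoplasmic reticulum, Erap1 trims them, and tapasin holds the empty heavy chain and its light chain B2m at the transporter until a peptide binds. Interferon gamma raises most of these genes, in part through Nlrc5, which drives class I promoters together with factors bound at conserved promoter elements, and loss of the pathway is a known route by which tumor cells escape T cells.

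The mice carried the H-2q haplotype of FVB/N, whereas GRCm38, the build to which the authors aligned the reads, is C57BL/6J with H-2b. Reads of a q allele that differs from its b counterpart can be lost or assigned to another class I gene, which bears on H2-K1 and H2-D1 more than on the other members, and the L locus of H-2q has no counterpart in H-2b. How many reads this moved was not tested. In the reference itself, 19.3% of all windows of 50 bases within the final 300 bases of H2-K1 transcripts were also found in other genes, most often in H2-Q10 (13.6%). For H2-D1 this share was 13.5%, most often in H2-K1 (5.35%). It was 4.92% for Tap1 and 3.04% for Tapbp, and 0 for the other 6 members. The levels of H2-K1 and H2-D1 are therefore less certain than those of the other members. Erap1 is also uncertain where its 3′ end overlaps that of Cast on the opposite strand, over 834 bases, since the sources used here do not say whether counting used the strand.

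Most members lie within the major histocompatibility complex on chromosome 17 of GRCm38. H2-K1 (ENSMUSG00000061232) runs on the minus strand from 33996017 to 34000347 and H2-D1 (ENSMUSG00000073411) on the plus strand from 35262730 to 35267499. Between them lie Psmb9 (ENSMUSG00000096727, minus strand, 34181987 to 34187764), Tap1 (ENSMUSG00000037321, plus strand, 34187553 to 34197225), Psmb8 (ENSMUSG00000024338, plus strand, 34197721 to 34201454) and Tap2 (ENSMUSG00000024339, plus strand, 34203527 to 34216321). Tapbp (ENSMUSG00000024308) lies on the same chromosome from 33915899 to 33929292. B2m (ENSMUSG00000060802) is on chromosome 2 from 122147686 to 122153083, Nlrc5 (ENSMUSG00000074151) on chromosome 8 from 94434356 to 94527272, and Erap1 (ENSMUSG00000021583) on chromosome 13 from 74639568 to 74693201, all on the plus strand.

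The promoters of H2-K1, H2-D1 and B2m, the genes whose products form the class I molecule, and the stretch between Tap1 and Psmb9 are shown because members that share elements or a start region can be set beside their levels. The sequences are the C57BL/6J sequences of RefSeq (GRCm38.p6), which held a promoter for 8 of the 10 members, Tap2 and Nlrc5 being the others, and they end at the base before the annotated start. Capitals mark, on either strand, the kappa B site GGGGATTCC, the CRE half-site TGACG, the Y box core ATTGG and the core of the interferon-stimulated response element GAAANNGAA.
H2-K1, chr17:34000334-34000583, minus strand: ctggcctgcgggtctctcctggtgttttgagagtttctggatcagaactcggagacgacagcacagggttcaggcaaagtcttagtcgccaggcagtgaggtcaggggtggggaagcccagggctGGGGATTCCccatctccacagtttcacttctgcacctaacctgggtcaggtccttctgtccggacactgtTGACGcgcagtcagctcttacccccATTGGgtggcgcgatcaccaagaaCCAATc
H2-D1, chr17:35262844-35263093, plus strand: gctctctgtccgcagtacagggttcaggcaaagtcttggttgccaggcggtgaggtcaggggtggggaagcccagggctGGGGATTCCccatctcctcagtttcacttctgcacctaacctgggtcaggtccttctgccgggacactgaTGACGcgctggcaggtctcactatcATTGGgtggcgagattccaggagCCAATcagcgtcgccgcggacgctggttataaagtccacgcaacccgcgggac
B2m, chr2:122147437-122147686, plus strand: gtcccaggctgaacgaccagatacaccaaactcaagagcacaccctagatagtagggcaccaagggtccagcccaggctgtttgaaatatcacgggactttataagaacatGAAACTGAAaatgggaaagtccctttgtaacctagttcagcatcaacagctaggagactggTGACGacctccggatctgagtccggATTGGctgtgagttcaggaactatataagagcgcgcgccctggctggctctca
Tap1 to Psmb9, chr17:34187331-34187555, plus strand: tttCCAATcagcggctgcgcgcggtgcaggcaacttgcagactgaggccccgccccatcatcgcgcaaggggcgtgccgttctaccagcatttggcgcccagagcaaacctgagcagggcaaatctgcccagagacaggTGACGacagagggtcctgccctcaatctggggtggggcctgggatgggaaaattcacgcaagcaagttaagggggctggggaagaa

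The heavy chain promoters were built alike. The kappa B site stood in H2-K1 and H2-D1 and in no other of the 8 promoters, against 0.250% of the 32851 mouse promoters of the same length. In both genes the CRE half-site began 70 bases after the start of the kappa B site, and the Y box core began 25 bases after that of the CRE half-site. Over the 100 bases from the kappa B site to the end of the Y box, 89 bases were identical between H2-K1 and H2-D1. B2m had no such kappa B site but had the CRE half-site and the Y box core at the same spacing of 25 bases, with an interferon-stimulated response element core upstream of them. That core was found in 2 of the 8 members' promoters (B2m and Erap1) and in 8.56% of all promoters. The CRE half-site was found in 5 of 8 and in 20.8% of all promoters, and the Y box core in 6 of 8 and in 37.4%. The windows of Tap1 and Psmb9 share 275 bases, so that 1 match of each of these elements is counted for both genes. Tap1 and Psmb9 are transcribed in opposite directions from RefSeq starts 226 bases apart, and the printed stretch lies between these starts. In GENCODE M21 Psmb9 begins further upstream, so that the genes overlap by 212 exon bases and the stretch lies within Psmb9. A match describes letters in these windows only, and no binding was measured.

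The authors used a 3′ library method, QuantSeq FWD, and deposited raw counts per gene. Totals on genes lay between 2509482 counts (tumor 2) and 5893246 counts (tumor 1), so that the floor of detection, taken as 3 counts, was 0.509 CPM in the deepest and 1.20 CPM in the shallowest library, where CPM are counts over the library total. Intervals and floors cover counting error only. Mouse identifiers in the labels begin with QAF in 4 tumors (1, 4, 5 and 6) and with QSD in 2 (tumors 2 and 3), and the labels do not say what the prefix marks. The library of tumor 1 stands apart from the others. Defining luminal genes, among them Epcam, summed to between 3957 and 4874 CPM. The sum of the leukocyte markers was 223 CPM in tumor 3 and 15.7 to 50.1 CPM elsewhere, with Cd8a and Cd79a at 0 in all 6. In such bulk samples, fewer cells of a type and less RNA per cell cannot be told apart.

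The class I molecule itself was abundantly transcribed in every tumor. H2-K1 lay at 600, 504, 654, 654, 522 and 632 CPM in tumors 1 to 6 (594 ± 66.3 CPM, mean ± SD, n = 6). H2-D1 lay at 378, 262, 421, 431, 396 and 506 CPM in tumors 1 to 6 (399 ± 80.0 CPM). B2m lay at 632, 387, 479, 543, 610 and 631 CPM (547 ± 98.4 CPM). In CPM all 3 genes were lowest in tumor 2, which also had the smallest library, and none had a tumor that stood clear of the rest. For H2-K1 this depends on the scaling. Under the TMM scaling used below it was lowest in tumor 5, at 510 CPM against 522 CPM in tumor 2. H2-K1 was the steadiest member, with a coefficient of variation of 11.2% across the tumors, lower than all but 1.86% of the 8873 genes averaging 10 CPM or more. Counting error alone would give it 2.03%.

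Tapasin was far higher in tumor 1 than elsewhere, and in CPM the 2 transporter subunits had their extremes in opposite tumors. Tapbp lay at 613 CPM in tumor 1 and at 237, 307, 287, 229 and 289 CPM in tumors 2 to 6 (327 ± 144 CPM, n = 6), so that tumor 1 lay far above the other 5, which spanned only 229 to 307 CPM. Tap1 lay at 74.3, 51.4, 48.7, 38.1, 31.5 and 39.6 CPM in tumors 1 to 6 (47.3 ± 15.1 CPM). It was highest in tumor 1 and lowest in tumor 5. Tap2 ran the other way at far lower counts, with 0 counts in tumor 1 and 3, 8, 11, 32 and 31 counts in tumors 2 to 6, or 1.20, 1.94, 2.34, 6.39 and 6.05 CPM. Its upper 95% limit in tumor 1 was 0.626 CPM (exact binomial), below the lower limits of tumors 3 to 6, the lowest of which was 0.838 CPM. Under the TMM scaling used below Tap2 was highest in tumor 6 instead, at 6.65 CPM against 6.25 CPM in tumor 5.

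Nlrc5, the regulator of the pathway, had the fewest counts of the 10 members. It had 30, 10, 13, 16, 3 and 7 counts in tumors 1 to 6, or 5.09, 3.98, 3.15, 3.40, 0.599 and 1.37 CPM. Its level in tumor 5 was at the floor, and the exact binomial interval of tumor 5 (0.124 to 1.75 CPM) lay below that of tumor 1 (3.43 to 7.27 CPM). Erap1 lay at 13.4, 9.17, 13.1, 19.4, 25 and 17.4 CPM (16.2 ± 5.57 CPM, n = 6) and was highest in tumor 5.

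The immunoproteasome subunits Psmb8 and Psmb9, which replace constitutive subunits in cells exposed to interferon, had their extremes in the same tumors but differed in spread. Psmb8 lay at 51.4, 29.1, 37.3, 35.7, 60.3 and 48.4 CPM in tumors 1 to 6 (43.7 ± 11.6 CPM, n = 6). Psmb9 lay at 3.73, 1.99, 7.52, 3.62, 13.6 and 4.69 CPM (5.85 ± 4.20 CPM). Both were highest in tumor 5 and lowest in tumor 2, 2.07-fold apart for Psmb8 and 6.81-fold apart for Psmb9, whose lowest value rests on 5 counts.

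**Figure D1:**
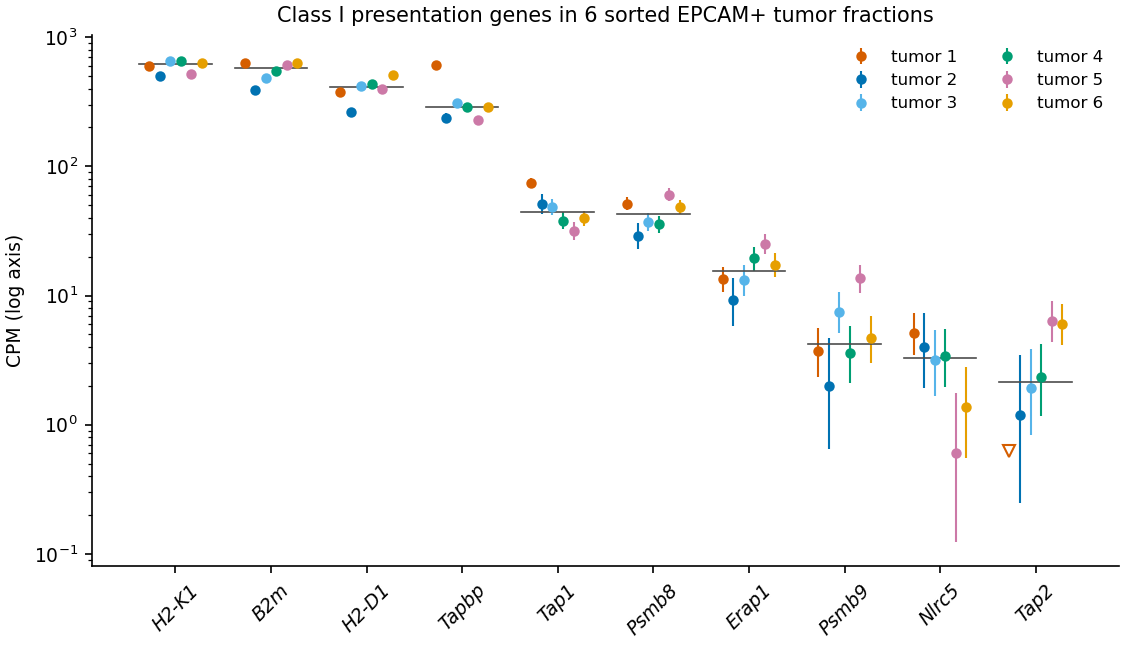
Level of each member in each tumor, in CPM on a log axis, with exact binomial 95% intervals for counting error; the horizontal line is the median of the 6 tumors and the open triangle is the upper limit of Tap2 in tumor 1, where it had 0 counts. H2-K1, B2m, H2-D1 and Tapbp lie at 229 CPM or more in every tumor, and Psmb9, Nlrc5 and Tap2 lie at 13.6 CPM or less.

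To set levels of different genes side by side, counts were divided by exon length, as TPM (a share of the library's length-scaled counts) with the union exon length of GENCODE M21. B2m led with a median of 1719 TPM (1186 to 1884), above H2-K1 with 527 TPM (445 to 586), H2-D1 with 398 TPM (268 to 483) and Tapbp with 202 TPM (158 to 433). Psmb8 followed with 31.6 TPM (22.7 to 44.7), Tap1 with 20.4 TPM (14.4 to 34.8), Erap1 with 5.30 TPM (3.32 to 8.59), Psmb9 with 2.88 TPM (1.43 to 9.29), Tap2 with 1.46 TPM (0 to 4.23) and Nlrc5 with 0.997 TPM (0.177 to 1.54). The steps from B2m to H2-K1, from Tapbp to Psmb8 and from Tap1 to Erap1 were wider than the ranges over tumors, and all other neighbours in the order overlapped. Reads of a 3′ library do not grow in number with transcript length, so division by length lowers long genes such as Nlrc5 (8493 exon bases). The order of B2m and H2-K1 depends on this division, their medians without it being 576 and 616 CPM.

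The members varied among tumors about as much as other genes did. The median coefficient of variation of the 10 members was 33.1%, against 33.9% for all 12088 genes kept by the filter on low counts. Among the 7 members averaging 10 CPM or more it was 26.6%, against 30.8% for all such genes. A tumor stood apart, by Dixon's ratio of its gap to the range of the 6, in 1 of these 7 members, where 18.1% of all such genes had one. That member was Tapbp, with a ratio of 0.797 for tumor 1. With a tumor left out, all 10 members were read against the critical value for 5 values (0.71), and the share of all genes was not computed. Without tumor 1 no member had one (0 of 10), and without tumor 3 Psmb9 was added, with tumor 5 as its highest. Psmb9 averaged 5.85 CPM and is not among the 7. Of all genes averaging 10 CPM or more with such a tumor among the 6, 80.5% had it in tumor 1. The highest level was in tumor 1 for 3 of the 7 members (B2m, Tap1 and Tapbp), against 38.2% of all such genes. B2m was nearly level in tumors 1 and 6, at 632 and 631 CPM. Under the TMM scaling used below B2m was highest in tumor 6, at 693 CPM against 615 CPM in tumor 1. The lowest level was in tumor 2 for 5 of the 7 (B2m, H2-K1, H2-D1, Psmb8 and Erap1), against 25.7% of all such genes. H2-K1 was lowest in tumor 5 instead under TMM scaling.

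The members differed in where they were high and low. Relative to each gene's own median, on log2(CPM + 1) after TMM scaling, which trims extreme genes before libraries are equalized, tumor 1 was at 1.06 for Tapbp, 0.68 for Tap1 and 0.52 for Nlrc5 and at -1.61 for Tap2. Tumor 5 was at -1.39 for Nlrc5, -0.52 for Tap1 and -0.35 for Tapbp, and at 1.42 for Psmb9, 1.25 for Tap2 and 0.60 for Erap1. Of the 45 pairs of members, 29 had a positive Pearson's r, with a median r of 0.24 (0.28 without tumor 1). Among the 7 members averaging 10 CPM or more, 16 of 21 pairs (76.2%) were positive, with a median r of 0.29, and without tumor 1 it was 15 of 21 with a median of 0.37. Over all pairs of genes at that level, 50.1% were positive.

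**Figure D2:**
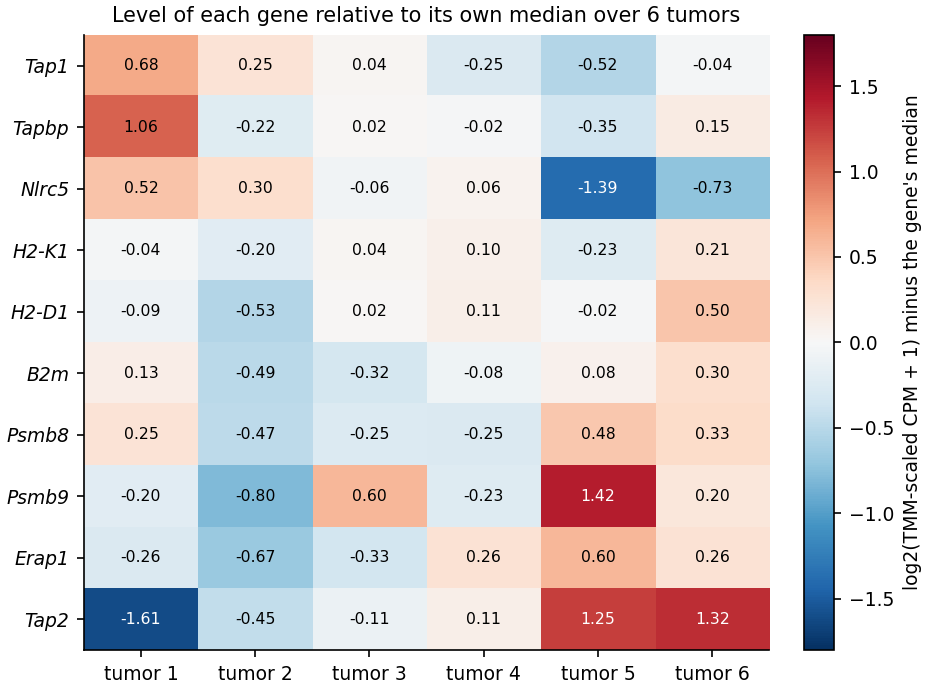
Level of each member in each tumor relative to the gene's own median over the 6 tumors, as a difference of log2(TMM-scaled CPM + 1), with red above and blue below the median. Tap1, Tapbp and Nlrc5 are above their medians in tumor 1 and below them in tumor 5, Tap2 and Psmb9 are below theirs in tumor 1 and above them in tumor 5, and H2-K1 stays between -0.23 and 0.21 throughout.

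Relations between members were described for 5 pairs set by their roles, on log2(TMM-scaled CPM + 1) over the 6 tumors. The pairs were chosen after their values were seen, so that no test is given. H2-K1 and H2-D1, whose promoters carried the same elements, ran together, with a Pearson's r of 0.81 and a Spearman's rho of 0.83. Their r was 0.99 without the 2 tumors farthest from the median of H2-K1 (tumors 5 and 6), 0.79 within the 4 QAF tumors and 0.81 without tumor 1. With a tumor left out it lay between 0.63 and 0.99. Reads shared by the 2 genes were not separated from this relation, and the part of the promoters in it was not tested. H2-K1 and B2m had an r of 0.42 and a rho of 0.37, with r at 0.50 without tumors 5 and 6, at 0.30 within the QAF tumors and at 0.47 without tumor 1. Their r lay between 0.05 and 0.74 with a tumor left out.

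Tap1 and Tap2, whose products form 1 transporter, ran in opposite directions, with r = -0.85 and rho = -0.83. Without tumors 1 and 5, the farthest from the median of Tap1, r was -0.40, so that the relation rests largely on those 2 tumors. It was -0.65 without tumor 1 alone and -0.84 within the QAF tumors. Tap1 and Psmb9 lie head to head, yet the ratio of Psmb9 to Tap1 counts varied 11.1-fold, from 0.0388 in tumor 2 to 0.430 in tumor 5. Their r was -0.64 and their rho -0.49, with r at -0.33 without tumors 1 and 5, at -0.75 without tumor 1 and at -0.66 within the QAF tumors. Psmb8 and Psmb9 had an r of 0.65 and a rho of 0.83. Their r was -0.21 without tumors 2 and 5, 0.77 without tumor 1 and 0.70 within the QAF tumors.

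The balance of immunoproteasome and constitutive catalytic subunits was read from count ratios within each library, which do not depend on scaling between libraries. Psmb8 replaces Psmb5, Psmb9 replaces Psmb6 and Psmb10 replaces Psmb7. The ratio of Psmb8 to Psmb5 was 5.14, 2.21, 2.20, 4.20, 4.95 and 4.20 in tumors 1 to 6. It was lower in tumors 2 and 3, the 2 QSD tumors, than in the other 4, on 33 to 70 counts of Psmb5. The counting interval of tumor 2 (1.45 to 3.45) overlapped those of tumors 4 (2.96 to 6.09) and 6 (3.15 to 5.68). That of tumor 3 (1.65 to 2.96) just reached that of tumor 4. The intervals of tumors 1 (3.87 to 6.91) and 5 (3.75 to 6.63) lay above both. In the reference, 51.4% of the 3′ windows of Psmb5 are shared with other genes, which leaves the height of this ratio uncertain. The ratio of Psmb9 to Psmb6 was 0.0111, 0.0107, 0.0354, 0.0228, 0.0595 and 0.0226, and the counting interval of tumor 5 (0.0459 to 0.0761) lay above those of tumors 1, 2, 4 and 6. The ratio of Psmb10 to Psmb7 was 1.61, 0.958, 0.665, 0.529, 0.334 and 0.420, highest in tumor 1 and lowest in tumor 5. So Psmb9 took its largest part, and Psmb10 its smallest, in the same tumor. A shift by base composition, which the library of tumor 1 had, need not cancel in a ratio of 2 genes that differ in it. In the last 300 bases, Psmb10 had 56.3% G and C and Psmb7 43%. The share was 54% for Psmb8 and 53% for Psmb5, and 47% for Psmb9 and 48% for Psmb6. The part of base composition in the ratios of tumor 1 was not tested.

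**Figure D3:**
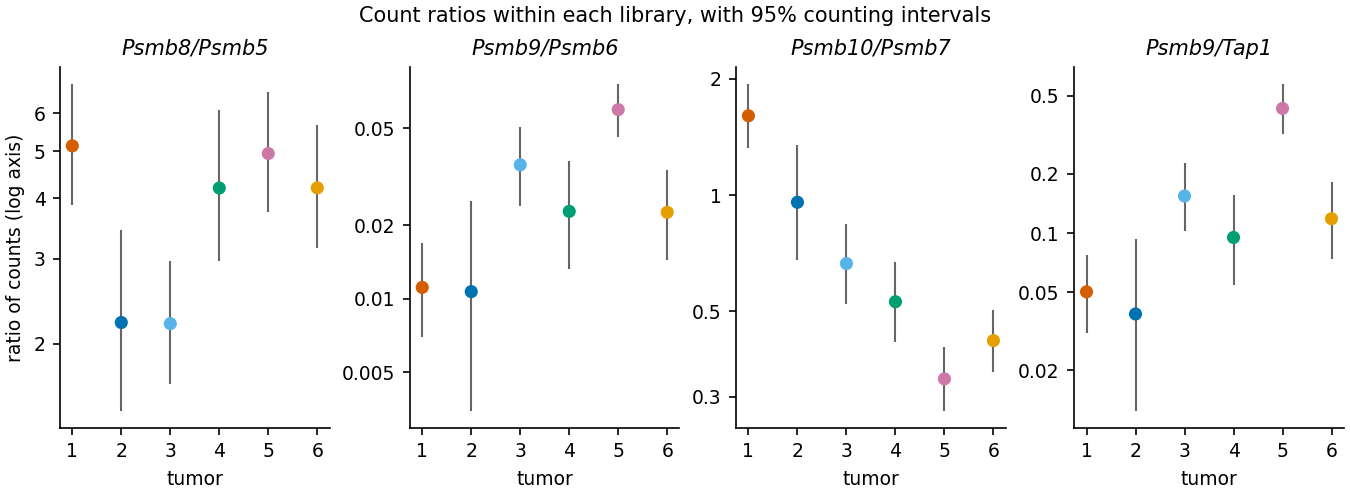
Ratio of the raw counts of 2 genes within each library, on log axes, for the 3 immunoproteasome subunits over their constitutive counterparts and for Psmb9 over Tap1; bars are 95% counting intervals (conditional binomial, exact). Psmb9/Psmb6 and Psmb9/Tap1 are highest in tumor 5, at 0.0595 and 0.430, and Psmb10/Psmb7 is lowest there, at 0.334.

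Relations of the members to 4 measures were computed across the 6 tumors on the same scale, each over all genes kept by the filter. Each p-value is two-sided, from all 720 orders in which the tumors can stand (an exact permutation test), adjusted by the Benjamini-Hochberg method over the genes tested. They measure only the spread between these samples, since the labels do not state how the tumors relate to litters or cohorts. No gene had an adjusted p under 0.05 for any of the 4 measures, so the counts below are of unadjusted p-values under 0.05. Over the 6 tumors they stand beside the share of all genes. For counts with a tumor left out or at another scaling that share was not computed. The smallest p that 720 orders can give is 0.00139. By the study's design the tumors hold both hypoxia classes, which were not compared.

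The members were set against Nlrc5, which had an unadjusted p under 0.05 with 3 of the 9 other members, where 10.1% of 12087 genes had one (1219 genes). Tap1 was higher where Nlrc5 was higher (r = 0.81, exact permutation p = 0.0472, adjusted p = 0.480; rho = 0.83, exact permutation p = 0.0583), with r at 0.86 without tumors 5 and 6, at 0.79 within the QAF tumors and at 0.76 without tumor 1. Tap2 ran against Nlrc5 (r = -0.90, exact permutation p = 0.0111, adjusted p = 0.451; rho = -0.89, exact permutation p = 0.0333), with r at -0.90 both without tumors 5 and 6 and within the QAF tumors and at -0.92 without tumor 1. Psmb9 also ran against it (r = -0.84, exact permutation p = 0.0389, adjusted p = 0.476; rho = -0.77, exact permutation p = 0.103), with r at -0.61 without tumors 5 and 6, at -0.91 within the QAF tumors and at -0.85 without tumor 1. The heavy chains and B2m, targets of Nlrc5 in other settings, had r of 0.10 (H2-K1), -0.46 (H2-D1) and -0.46 (B2m), with exact permutation p-values of 0.868, 0.363 and 0.357 and rho of -0.03, -0.54 and -0.26. Of the 9 members, 6 had a negative r, and the median r was -0.46 over the 6 tumors, -0.28 within the QAF tumors, -0.32 without tumors 5 and 6 and -0.75 without tumor 1. Over all 12087 genes, 49.3% had a positive r with Nlrc5 and the median r was -0.01. The count of 3 fell to 0 without tumor 2 and to 1 without tumor 5 or without tumor 6. Tap2 was called with any tumor but tumor 2 left out, whereas Tap1 was called only without tumor 4 and Psmb9 only without tumor 3, and Psmb8 came in without tumor 1 and Erap1 without tumor 4. Nlrc5 itself rests on 3 to 30 counts a tumor, and its coefficient of variation was 56.9%, of which counting error alone would give 35.3%.

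The interferon gamma score, the mean log2 level of 8 interferon-induced genes (Irf1, Gbp2, Gbp3, Gbp7, Igtp, Irgm1, Irgm2 and Ifi47), was lowest in tumor 1 at 4.42 and lay between 4.76 and 5.18 in the other 5. Its genes did not agree in tumor 1. Gbp7 was at 6.79 CPM there against 54.3 to 86.6 CPM elsewhere, and Irgm1 and Irgm2 were lowest there too, whereas Igtp was highest, at 94.2 CPM against 46.1 to 74.4 CPM. Their summed level was also highest in tumor 1, at 512 CPM against 375 to 509 CPM, so that the low score of tumor 1 rests on a few of the 8 genes. The score had an unadjusted p under 0.05 with 2 of the 10 members, where 16.9% of 12080 genes had one (2043 genes). Tap1 ran against the score (r = -0.90, exact permutation p = 0.0153, adjusted p = 0.229; rho = -0.77, exact permutation p = 0.103), with r at -0.47 without tumors 1 and 5, at -0.74 without tumor 1 and at -0.98 within the QAF tumors. Tap2 ran with it (r = 0.84, exact permutation p = 0.0375, adjusted p = 0.271; rho = 0.71, exact permutation p = 0.136), with r at 0.32 without tumors 1 and 5, at 0.57 without tumor 1 and at 0.94 within the QAF tumors. Both relations therefore rest largely on tumors 1 and 5. The count was 0 without tumor 5, and the single member called was Psmb9 without tumor 1, Tapbp without tumor 2 and Tap1 without tumor 4. It was 3 without tumor 3, where Nlrc5 was added, and 0 with CPM scaled by the library total. By Spearman's rho, 950 of the 12080 genes were called. Nlrc5, the single member called by rho, ran against the score (r = -0.77, exact permutation p = 0.0681, adjusted p = 0.314; rho = -0.94, exact permutation p = 0.0167). Its r was -0.47 without tumors 1 and 5, -0.75 without tumor 1 and -0.88 within the QAF tumors. The score's relation to Psmb9 had r = 0.70 (exact permutation p = 0.121, adjusted p = 0.367; rho = 0.83, exact permutation p = 0.0583) and was 0.97 without tumor 1. The median r over the 10 members was 0.06, and 0.04 within the QAF tumors, but 0.45 without tumor 1 and 0.41 without tumors 1 and 5. Ifng itself was at 0 counts in all 6 libraries, while its receptor subunits Ifngr1 (66.5 to 90.6 CPM) and Ifngr2 (5.98 to 16.6 CPM) were detected in every tumor.

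Leukocytes, which themselves express class I genes, were followed by the summed level of 14 markers. None of the 10 members (0 of 10) had an unadjusted p under 0.05 with it, where 2.03% of 12084 genes had one (245 genes). The median r of the members was 0.05, against 0.34 without tumor 3, 0.60 without tumors 3 and 4 (the farthest from the median of the markers) and 0.11 within the QAF tumors. Tumor 3, with the most leukocyte transcripts by far, held the highest CPM of none of the 10 members. H2-K1 was nearly level in tumors 3 and 4, at 653.5 and 654.1 CPM. The share of all genes highest in tumor 3 was not computed, so that this count cannot be read as few or many. The part of leukocytes in the members' levels was not tested. The largest r was that of Psmb9, at 0.58 (exact permutation p = 0.231, adjusted p = 1; rho = 0.89, exact permutation p = 0.0333), which was 0.87 without tumors 3 and 4 and 0.65 within the QAF tumors. Without tumors 3 and 4, r was 0.997 for Psmb8, 0.92 for Erap1 and 0.88 for B2m, and that of Psmb8 was 0.93 without tumor 3 alone, so that the low values over the 6 tumors depend on tumors 3 and 4. All 3 class II genes tested (H2-Aa, H2-Ab1 and Cd74) followed the leukocyte markers, with r of 0.89, 0.92 and 0.90 (exact permutation p = 0.0333, 0.0167 and 0.0139, adjusted p = 1 for each), rho of 0.77, 0.71 and 0.77 (exact permutation p = 0.103, 0.136 and 0.103), r of 0.86, 0.83 and 0.75 without tumors 3 and 4, and r of 0.71, 0.82 and 0.82 within the QAF tumors. The sum of the class II genes was 98.2 CPM in tumor 3 and 2.79 to 26.1 CPM elsewhere.

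The 3-gene hypoxia score, the mean TPM of Vegfa, Slc2a1 and Car9 taken as log2, is the measure closest to the study's question. It was 5.60, 5.22, 5.68, 6.26, 6.56 and 5.56 in tumors 1 to 6. It had an unadjusted p under 0.05 with 1 of the 10 members, where 4.2% of 12085 genes had one (507 genes). That member was Erap1 (r = 0.85, exact permutation p = 0.0306, adjusted p = 0.969; rho = 0.60, exact permutation p = 0.242), with r at 0.58 without tumors 4 and 5 and at 0.75 within the QAF tumors. The count was 0 without tumor 2, 3 or 5. The single member was Tap1 without tumor 1, Psmb9 without tumor 4 and Erap1 without tumor 6. Tap1 had the most negative r, at -0.77 (exact permutation p = 0.0722, adjusted p = 0.969; rho = -0.71, exact permutation p = 0.136), which was -0.06 without tumors 4 and 5, -0.80 within the QAF tumors and -0.98 without tumor 1. The class I molecule showed no relation to the score that these 6 tumors could resolve, with r of -0.14 for H2-K1, 0.29 for H2-D1 and 0.35 for B2m and exact permutation p-values of 0.785, 0.572 and 0.497 (rho of -0.20, 0.26 and 0.09). Within the QAF tumors these r were -0.64, -0.42 and -0.66, and the median r of the 10 members was -0.47 there against 0.32 over the 6 tumors, with -0.22 without tumor 2 and 0.31 without tumor 3, so that the direction of the median turns on tumor 2.

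**Figure D4:**
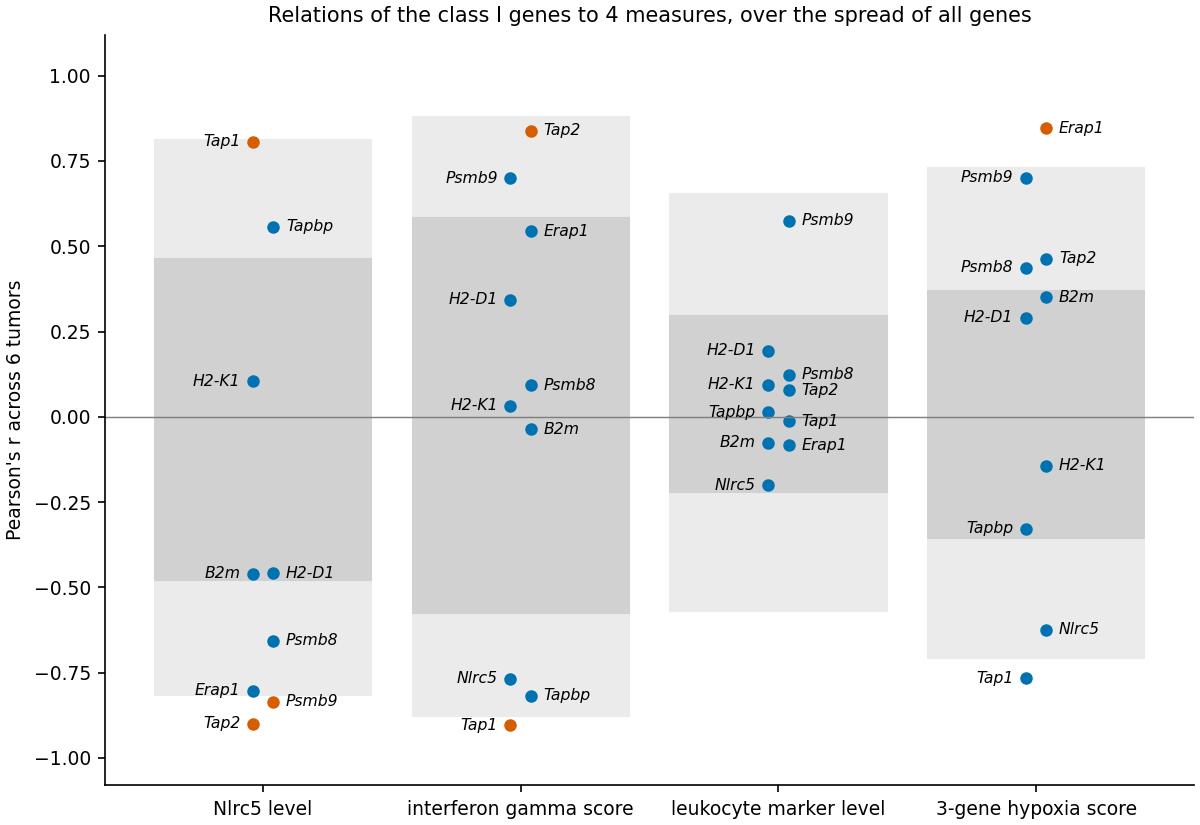
Pearson's r of each member with 4 measures over the 6 tumors, on log2(TMM-scaled CPM + 1), with orange points for an unadjusted exact permutation p under 0.05; the dark and light bands hold the middle 50% and 90% of r over all genes tested. Members are spread over the bands for Nlrc5, for the interferon gamma score and for the hypoxia score, and 9 of 10 lie between -0.20 and 0.19 for the leukocyte markers.

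The library of tumor 1 differed from the others by base composition, which bears on the members that are highest or lowest there. Over 12068 genes with a sequence in GENCODE M21, tumor 1 minus the median of the other 5, on log2(TMM-scaled CPM + 1), had a median of -0.53 in the lowest of 5 bins of GC content in the last 300 bases and of 0.59 in the highest bin. Tapbp, with 53.3% GC in the highest bin, was at 1.08, above that bin's median. Tap1 (47.3% GC) was at 0.72 and Nlrc5 (45.3% GC) at 0.58, in the bin with a median of 0.28. Tap2 (50.7% GC) was at -1.72 where its bin had 0.59. H2-K1 (41.7% GC) was at -0.08, near the median of its bin. Outside the members, Psmb10 (56.3% GC) was at 0.72 where its bin had 0.59, and Psmb7 (43% GC) was at -0.51 where its bin had -0.003. The part of base composition in these differences was not tested further.

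**Figure D5:**
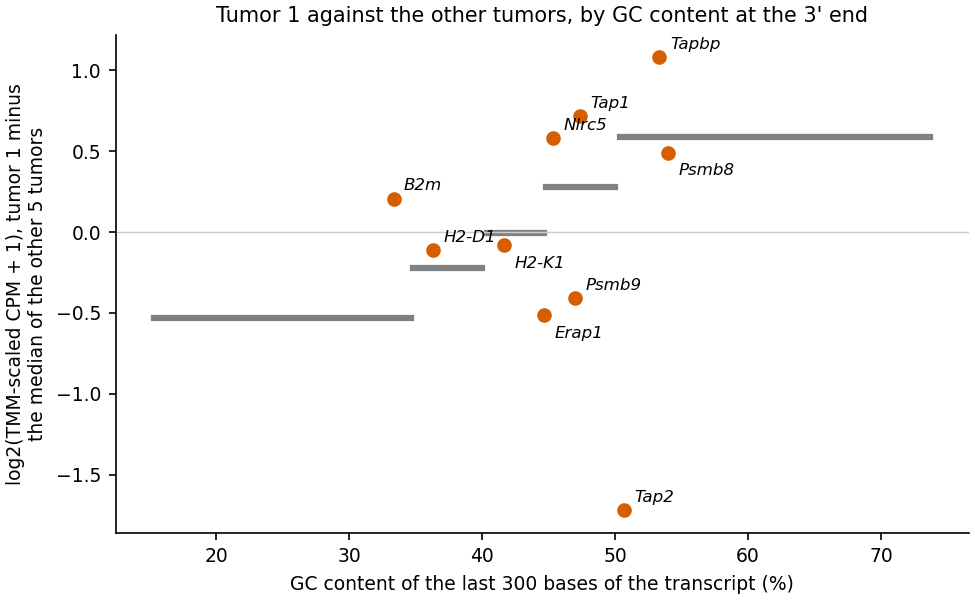
Tumor 1 minus the median of the other 5 tumors, on log2(TMM-scaled CPM + 1), against the GC content of the last 300 bases of the transcript; points are the 10 members and bars are the medians of all genes in 5 bins of GC content. The medians run from -0.53 to 0.59, Tapbp lies above its bin at 1.08 and Tap2 far below its bin at -1.72.

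Other class I genes mostly had few or no counts. As for H2-K1 and H2-D1, reads of q alleles of these genes can be lost or assigned elsewhere. The share of their 3′ windows found in other genes ran from 0 (as for H2-T3) to 50.6% (H2-T23), with 49.4% for H2-Q6 and 49.8% for H2-T10. Few counts therefore need not mean that a gene was silent, and the loss of reads was not tested. Of 18 further class I heavy chain and class I-like genes, 8 had at most 3 counts in every tumor, of which H2-T24, H2-M5 and H2-M9 were at 0 throughout. H2-T23, which encodes the nonclassical molecule Qa-1 seen by NK and T cell receptors, lay at 91.6, 42.6, 72, 45.7, 41.3 and 67.9 CPM in tumors 1 to 6, with 50.6% of its 3′ windows shared with other genes. Mr1, which presents vitamin metabolites to MAIT cells, lay between 13.5 and 27.9 CPM, and Cd1d1, which presents lipids to NKT cells, between 15.1 and 29.1 CPM. H2-Q4 had an unadjusted p under 0.05 with Nlrc5 (r = -0.84, exact permutation p = 0.0389, adjusted p = 0.476; rho = -0.89, exact permutation p = 0.0333) and an r of -0.87 without tumors 5 and 6 and of -0.85 within the QAF tumors. It also had one with the interferon gamma score (r = 0.85, exact permutation p = 0.0319, adjusted p = 0.263; rho = 0.71, exact permutation p = 0.136), where r was 0.28 without tumors 1 and 5, 0.50 without tumor 1 and 0.93 within the QAF tumors. Both signs were those of Tap2, and 45.4% of the 3′ windows of H2-Q4 are shared with other genes. H2-Q2 was highest in tumor 3, at 22.3 CPM against 7.44 to 12.7 CPM in the others, and was the sole gene of the 6 tested in this group to follow the leukocyte markers (r = 0.84, exact permutation p = 0.0319, adjusted p = 1; rho = 0.66, exact permutation p = 0.175). Its r was -0.13 without tumors 3 and 4 and 0.53 within the QAF tumors, so that the relation rests on those 2 tumors.

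The chaperones that serve class I loading along with other proteins were all detected. Calr lay between 345 and 828 CPM, Canx between 299 and 481 CPM, and Tapbpl, the tapasin-related editor, between 21.5 and 37.5 CPM. Pdia3, the oxidoreductase of the loading complex, lay at 53.6 CPM in tumor 1 and between 229 and 539 CPM in the other 5, so that tapasin was highest and its partner lowest in the same tumor. On the scale used above Pdia3 was at -2.94 in tumor 1, a difference lower than that of all but 0.951% of genes, with 45% GC. None of the 4 had an unadjusted p under 0.05 with any of the 4 measures. Of the 7 further proteasome genes, 2 had such a p, Psmb7 and Psme2. Psmb7 ran against Nlrc5 (r = -0.94, exact permutation p = 0.00972, adjusted p = 0.451; rho = -0.89, exact permutation p = 0.0333). Its r was -0.90 without tumors 5 and 6 and -0.94 within the QAF tumors. The proteasome activator subunits Psme1 and Psme2, which act as 1 complex, had count ratios of Psme2 to Psme1 between 0.0797 (tumor 2) and 0.342 (tumor 3), with 58.8% of the windows of Psme2 shared with other genes. Psme2 ran with the interferon gamma score (r = 0.81, exact permutation p = 0.0403, adjusted p = 0.277; rho = 0.94, exact permutation p = 0.0167), with r at 0.95 without tumors 1 and 5, at 0.94 without tumor 1 and at 0.96 within the QAF tumors. None of the 7 other peptidases tested had such a p with any measure, and Lnpep, which trims peptides in endosomes, lay between 0.509 and 9.15 CPM.

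Among 14 regulators, the class II transactivator Ciita had at most 4 counts in a tumor, while the RFX subunits Rfx5 (18.4 to 38.6 CPM), Rfxap (14.3 to 24.2 CPM) and Rfxank (3.62 to 8.49 CPM), which bind class I and class II promoters with Nlrc5 or Ciita, were detected in every tumor. Irf1, a transcription factor that acts on class I promoters, was the sole regulator of the 13 tested with an unadjusted p under 0.05 with Nlrc5 (r = 0.92, exact permutation p = 0.0111, adjusted p = 0.451; rho = 0.89, exact permutation p = 0.0333). Its r was 0.81 without tumors 5 and 6 and 0.93 within the QAF tumors. It lay at 321, 328, 272, 280, 191 and 164 CPM in tumors 1 to 6, lowest in tumors 5 and 6 where Nlrc5 was lowest as well. Nfyc, a subunit of the factor that binds the Y box, ran against the interferon gamma score (r = -0.96, exact permutation p = 0.00833, adjusted p = 0.204; rho = -0.83, exact permutation p = 0.0583), and so did Rela, a kappa B factor (r = -0.91, exact permutation p = 0.0194, adjusted p = 0.238; rho = -0.71, exact permutation p = 0.136). Both were highest in tumor 1, and 33.3% of the 3′ windows of Nfyc are shared with another gene. Their r was -0.75 and -0.68 without tumors 1 and 5, -0.85 and -0.63 without tumor 1, and -0.98 and -0.92 within the QAF tumors. Jak1, a kinase of the interferon receptors, also ran against that score (r = -0.93, exact permutation p = 0.00972, adjusted p = 0.209; rho = -0.94, exact permutation p = 0.0167), with r at -0.43 without tumors 1 and 5, at -0.74 without tumor 1 and at -0.98 within the QAF tumors. It ran with Nlrc5 (r = 0.83, exact permutation p = 0.0431, adjusted p = 0.476; rho = 0.89, exact permutation p = 0.0333), with r at 0.83 without tumors 5 and 6 and at 0.95 within the QAF tumors.

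The 5 genes outside the lists whose profile was most like the members' mean standardized profile, among the 8873 genes averaging 10 CPM or more, were Tmem50a (r = 0.98), Noa1 (r = 0.98), Cdkn1c (r = 0.98), Tmem38b (r = 0.98) and 4931414P19Rik (r = 0.98), each over 6 tumors. These r describe the genes that were picked for them. The mean profile itself was lowest in tumor 2 and highest in tumor 6.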

How the data were processed

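The data were RNA-seq libraries of sorted CD45-EPCAM+ cells from 6 B20-4.1.1-treated MMTV-PyMT tumors. The authors prepared 3′ libraries (QuantSeq FWD with molecular identifiers of 6 bases), trimmed with bbduk, used STAR 2.5 for alignment to GRCm38/mm10 and made gene counts with HTSeq. The deposited files hold raw counts, 1 file per tumor, without normalization. The collapsing of reads by identifier, the strand setting of the counting and the annotation release are not given in the sources used here. Reads on no gene, 16.1 to 41.4% of a file, entered neither library sizes nor tests.

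Symbols were taken from GENCODE M21, which matched 47224 of 47643 identifiers. From the counts, CPM and TPM (union exon length) were computed, and TMM factors (0.910 to 1.06) on the 12088 genes kept by edgeR's filterByExpr (minimum count 10, minimum total 15, group size 3). The labels put all samples in 1 group, so no groups were compared. Dixon's ratio was read against its 95% critical value for 6 values, or for 5 values with a tumor left out. Relations used log2(TMM-scaled CPM + 1) with exact permutation p-values and Benjamini-Hochberg adjustment over all genes tested. With all 6 tumors and TMM scaling, the number of members past an unadjusted p of 0.05 was read beside the share of all genes. The scripts were tested on simulated data. Shares of 3′ windows came from GENCODE M21 transcripts and promoters from RefSeq.

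The genes named are the members, the genes of the lists, and the 5 genes most like the members' mean profile. The members and lists were chosen with earlier results of these data known. One gene of the regulators and of the interferon gamma score, as the lists were first set, is not reported here, and the score was computed over the other 8. The 5 pairs set by role were chosen after the values were seen and were not tested. Alternatives were other scalings (CPM, DESeq2 size factors, CPM without the 10 most abundant genes), pseudocounts of 0.5 and 5, another filter, Spearman's rho, the 4 QAF tumors and leaving out each tumor. The tools were edgeR 4.0.16 and DESeq2 1.42.0 in R 4.3.3, and Python 3.11.15 (pandas, scipy).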

Additional observations from a re-analysis of the deposited data

Results flagged for a closer look

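Among 35 measures compared over the 6 tumors (the levels of the 10 members, count ratios and summed gene lists), 5 had a highest or lowest tumor that passed Dixon's critical value for its distance from the rest. Chance flags about 1 in 20, here 1.75, but 18.1% of all genes averaging 10 CPM or more passed the same value in these libraries, so that 5 of 35 is no excess over that share. The measures also share genes and libraries. Among the members, Tapbp was flagged for its level in tumor 1 (ratio 0.797). The other 4 were summed lists that were highest in tumor 3, none of them made of members. These were the leukocyte markers (ratio 0.834), the class II genes (0.755), the erythroid genes (0.926) and the type I interferon genes (0.697). Tumor 3 held the highest level in CPM of 0 of the 10 members, with H2-K1 nearly level in tumors 3 and 4. The share of all genes highest in tumor 3 was not computed, so that this count cannot be read as few or many.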

How the results depend on the processing

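Of 90 alternative medians of the members' levels, 87 moved by less than 1 SD over the tumors. The other 3 came from CPM without the 10 most abundant genes, which gave 691 CPM for B2m, 735 CPM for H2-K1 and 498 CPM for H2-D1, since that total is smaller. The median coefficient of variation lay between 25.6 and 36.1% over 9 alternatives, and the count ratios of the proteasome subunits moved by less than 1 SD in all 21 of theirs. Over all 10 members, the number with a tumor that stands apart was 1 under each scaling and on log2(CPM + 1). It was between 0 and 2 with a tumor left out. With at least 1 count in every tumor as the filter, 16.4% of all genes had such a tumor.

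The counts of members related to a measure were small and depended on single tumors and settings, and the causes were not tested. With Nlrc5 the count was 1 by Spearman's rho and between 0 and 3 with a tumor left out. With the interferon gamma score it was 0 with CPM by library total, 1 with CPM without the 10 most abundant genes, 1 by Spearman's rho and between 0 and 3 with a tumor left out. With the leukocyte markers it was 1 by Spearman's rho. With the hypoxia score it was 0 by Spearman's rho and between 0 and 1 with a tumor left out. By rho, 1153 of 12087 genes were called for Nlrc5 and 950 of 12080 for the interferon gamma score. For the leukocyte markers it was 218 of 12084, and for the hypoxia score 213 of 12085. The share of all genes was not computed for the other alternatives. The median r of the members moved by more than 1 SD over members in 2 of 56 alternatives, at 0.34 for the leukocyte markers without tumor 3 and at -0.47 for the hypoxia score within the QAF tumors.

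No paired analysis was possible because all 6 samples belong to 1 group. With 6 tumors and 3 to 32 counts a tumor for Nlrc5 and most values of Tap2, depth limits what can be said of these genes, and hypoxia class, untreated tumors and protein were not analysed here.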
